A study of Mus musculus with 4 samples.

Results

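The clustered histone genes are the mouse genes that encode the linker histone H1 and the core histones H2A, H2B, H3 and H4 in arrays on a few chromosomes. They were taken as all rows of the deposited count table whose symbol begins with Hist1h, Hist2h, Hist3h or Hist4h, which gave 69 of 24907 genes, namely 6 of H1, 19 of H2A, 19 of H2B, 12 of H3 and 13 of H4. By the cluster number in the symbol, 55 are Hist1 genes on chromosome 13, 10 Hist2 genes on chromosome 3, 3 Hist3 genes on chromosome 11 and 1 a Hist4 gene on chromosome 6. The rule uses names only and no measured value. RNA-seq was run on ASZ001, a cell line from a mouse basal cell carcinoma (BCC), a skin tumour of keratinocyte origin. The control cells carried an empty doxycycline-inducible vector and the c-FOS cells the same kind of vector with the transcription factor c-FOS. Both received doxycycline, and each group had 2 libraries. The sources used here do not say whether a line was 1 clone, how long doxycycline was given, or whether a group's libraries are separate cultures. The p-values below therefore cover the spread between these libraries, which may be technical. Fos, the induced gene, was at 0.404 and 0.351 CPM in the control libraries and 297 and 313 CPM in the c-FOS libraries, as the group names imply. No c-FOS vector cells without doxycycline were included, so c-FOS induction and other differences between the 2 kinds of cell cannot be told apart.

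Clustered histone genes are made in step with DNA replication: their transcription rises as cells enter S phase, and their products package the newly copied DNA. Their transcripts are unusual among messenger RNAs, because the mature form has no poly(A) tail and ends just after a conserved stem-loop that is bound by the protein SLBP. Some of the genes can also give polyadenylated transcripts that run past the stem-loop, as described for resting and differentiated cells. A library built on poly(A) RNA therefore sees only a part of this family, and which part may differ between members. The labels name an Illumina TruSeq RNA kit and total RNA as input. The series design text speaks of mRNA profiles, but no label names a step of poly(A) selection.

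The stem-loop is shown first, because it is the feature that sets where a mature histone transcript ends. A search of the GENCODE M21 transcripts (GRCm38) for a stem of 6 base pairs around a loop of 4 bases, read on the transcript strand as GG, any 2 bases, CTTTT, any base, AG, any 2 bases and CC, matched 44 of the 69 members, against 0.161% of 55341 annotated genes. Of the 25 members without a match, 14 have only annotated transcripts of under 420 bases, and no match says only that these letters are not in the annotated transcript. The matched sequences fell into 6 forms, printed below with the loop in capitals.
H1, H2A, H2B and H3 members (26 genes, with Hist1h1c, Hist3h2a and Hist1h3b): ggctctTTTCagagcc
6 genes with Hist1h3c and Hist1h3e: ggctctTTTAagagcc
Hist2h2ac: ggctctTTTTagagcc
7 H4 genes with Hist1h4d and Hist1h4h: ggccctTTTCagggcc
Hist1h4i and Hist2h4: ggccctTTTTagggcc
Hist1h4b and Hist1h4j: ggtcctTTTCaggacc
All 11 matched H4 genes carried stems that no matched gene of the other classes carried. The deposited gene model length was within 30 bases of the end of the stem-loop for 32 of the 44 matched members, although the annotated transcript went on for more than 300 bases past it in 18 of the 44. For Hist1h1c the deposited length was 722 bases and the stem-loop ended at base 720 of a transcript of 1560 bases. For Hist3h2a these values were 505, 503 and 2146 bases. Reads past the stem-loop would fall outside gene models that end there. The annotation behind the deposited lengths is not given, and the lengths do not show where a model starts.

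**Figure D1:**
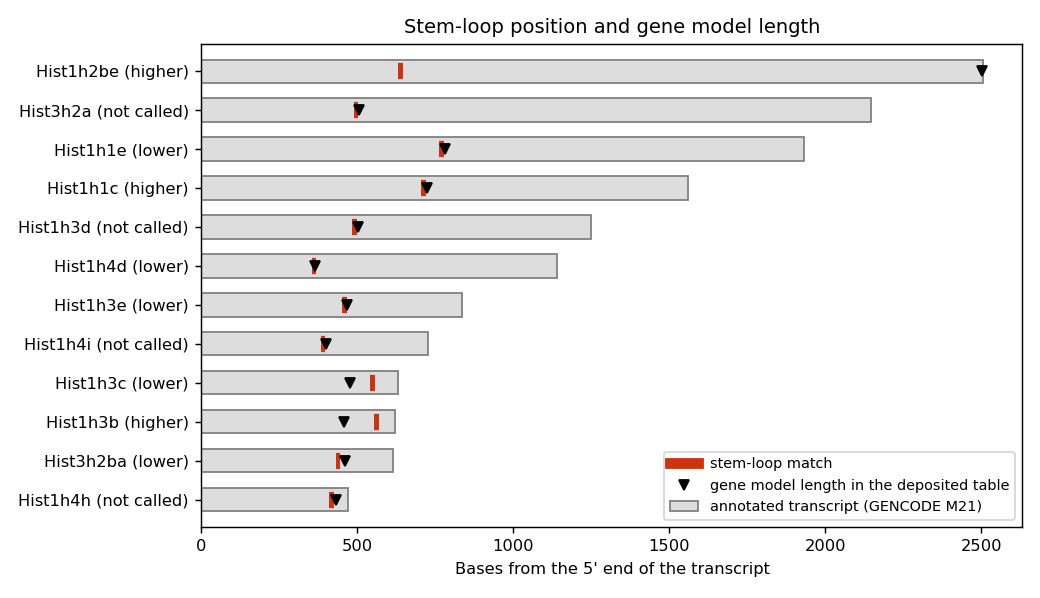
Annotated transcripts of 12 named members with a stem-loop match (grey bars, bases from the 5′ end), the position of the stem-loop (red) and the gene model length in the deposited table (black triangles), with the test result in brackets. In most of them the triangle sits at the stem-loop and well short of the transcript end, while the model of Hist1h2be has 2502 bases; Hist1h1d, whose annotated transcript has 7425 bases, is not drawn.

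With c-FOS, clustered histone transcripts moved in both directions: 11 members fell and 5 rose. The members that fell came from every class, for example Hist1h1b of H1 (-1.93 on the log2 scale), Hist1h2af of H2A (-2.38), Hist2h2bb of H2B (-1.05), Hist1h3c of H3 (-2.29) and Hist1h4d of H4 (-2.36). The 5 that rose were Hist1h1c (0.93), Hist1h2bc (2.06), Hist1h2be (1.57), Hist1h2al (1.45) and Hist1h3b (3.06), and they include 2 of the 3 most abundant members. Of the 25 tested members, 11 fell and 4 rose by at least 2-fold, and of all tested genes 7.71% fell and 7.73% rose by at least 2-fold. Nothing is read from that comparison, since most of the members that fell passed the filter on counts only through the control libraries, and at low counts a smaller change could not have passed. These calls are from edgeR's quasi-likelihood test across all genes at an adjusted p of 0.05, in which 67.1% of 12791 tested genes were called, 33.3% lower and 33.8% higher with c-FOS. Only 25 members had enough counts to be tested. Of these, 10 reached 10 counts in control libraries only and 1 in c-FOS libraries only, so the filter itself favours a difference among them, and their median log2 fold change of -0.94, against -0.01 over all tested genes, is a description only. Scaled by library totals and not by TMM factors, which lowered the median over all tested genes to -0.14, 5 members were higher and 14 lower, and 3217 genes were higher and 5879 lower against 4324 and 4265. With DESeq2, 5 members were higher and 6 lower.

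Members were thinly covered, and levels are given below as deposited counts or as CPM. CPM is the count scaled to the TMM-adjusted library size, after values ending in 0.5 were raised to the next whole number. The 4 libraries held 28405433 to 32465409 counts, of which all 69 members together took 1376 and 1437 counts in the control and 1802 and 2048.5 counts in the c-FOS libraries. The median member had 17.5 counts over the 4 libraries, and 61 members had fewer than 100. Hist1h2aa and Hist1h4m were at 0 in all libraries. Members also share sequence with other annotated genes, both copies of their class and genes that overlap them. For 36 members more than 50% of the 50-base stretches of an annotated transcript also occur in a transcript of another gene, on either strand. For 4 members none do. Hist2h2bb shares only with Gm20628 and Gm42743, which overlap it. These shares cover the whole annotated transcript, which can be longer than the deposited gene model, so the share within a model can differ. Both genes of Hist2h3c1 and Hist2h3c2, of Hist2h2aa1 and Hist2h2aa2, and of Hist1h2bq and Hist1h2br were given the same counts in every library, so these copies cannot be told apart here. Counts of single members below are uncertain to that extent, and how shared reads were handled was not given in the sources used here. In bulk RNA, fewer cells making a transcript and less transcript per cell cannot be told apart.

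**Figure D2:**
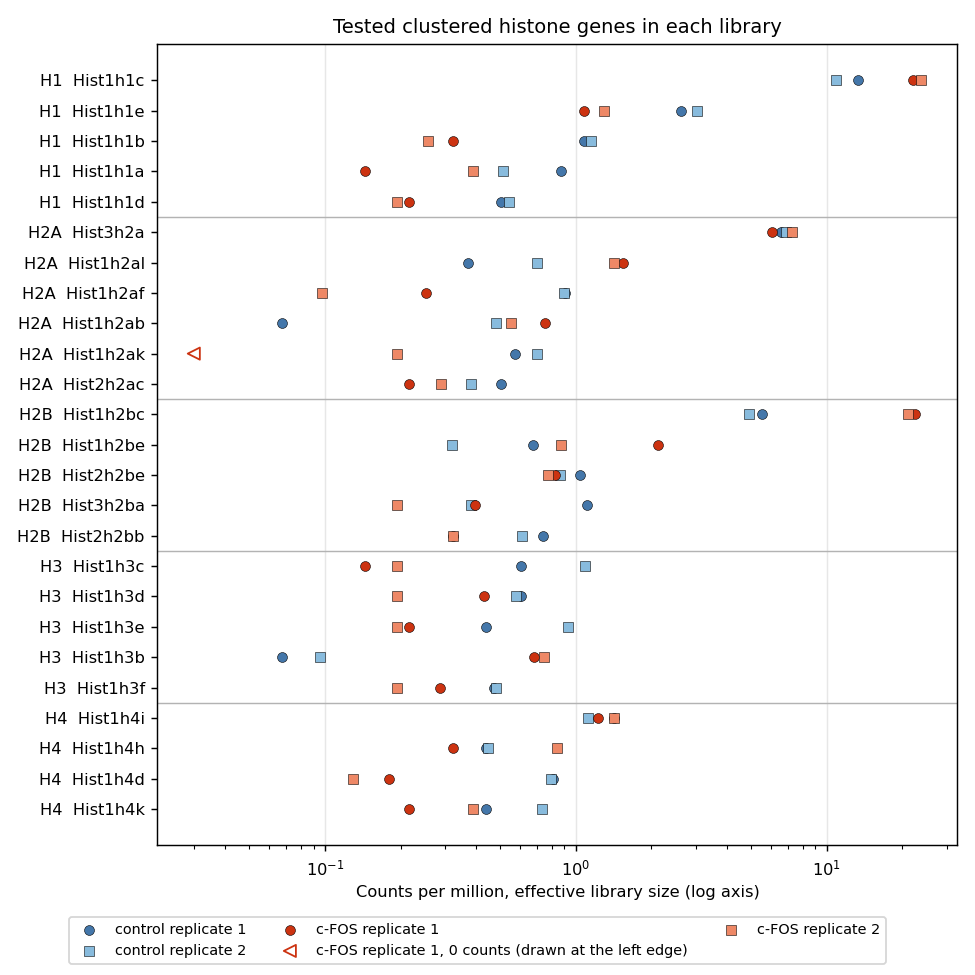
Counts of each gene scaled to the library (CPM, log axis, TMM-scaled library size) of the 25 tested members in each of the 4 libraries, grouped by class and ordered by mean level. Blue marks are control and red marks c-FOS libraries; Hist1h1c, Hist1h2bc and Hist3h2a lie above the rest, and Hist1h2ak had 0 counts in c-FOS replicate 1 (open triangle).

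H1 linker histones bind the DNA between nucleosomes and compact chromatin. Hist1h1c, which encodes a somatic H1 subtype that is also found in cells that do not divide, was the most abundant member per base of gene model. Its gene lies at chr13:23738808-23740367 on the plus strand (GENCODE M21, GRCm38). It had 13.2 and 10.9 CPM in the control libraries and 22 and 23.7 CPM in the c-FOS libraries. Both c-FOS libraries were above both control libraries. From 12.1 ± 1.69 CPM (SD, n = 2) in control to 22.8 ± 1.25 CPM with c-FOS, it rose by 0.93 ± 0.10 (SE) on the log2 scale with an edgeR adjusted p of 1.16e-06. The other 4 tested H1 genes went the opposite way. Hist1h1e had 2.62 and 3.03 CPM in the control libraries and 1.08 and 1.29 CPM in the c-FOS libraries and fell by 1.25 ± 0.21 (SE) on the log2 scale (edgeR adjusted p = 1.06e-04). Its GENCODE gene overlaps Hist1h2be, which rose, on the same strand, and 32% of its 50-base stretches occur in other genes. Hist1h1b had 31.5 and 36 counts in the control libraries and 8.5 and 8 in the c-FOS libraries and fell by 1.93 ± 0.33 (SE) on the log2 scale (edgeR adjusted p = 1.62e-04). Its gene is at chr13:21779883-21780625 on the minus strand (GENCODE M21, GRCm38), and none of its 50-base stretches occurs in another gene. The groups did not overlap for either gene.

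The H1 calls with the fewest counts were less secure. Hist1h1d had 15 and 17 counts in the control libraries and 6 and 6 in the c-FOS libraries and fell by 1.34 ± 0.43 (SE) on the log2 scale (edgeR adjusted p = 0.0131). DESeq2 did not call it (adjusted p = 0.171), nor did edgeR without c-FOS replicate 1 (0.0822) or without c-FOS replicate 2 (0.120), within a range of 0.00695 to 0.171 over the alternatives run. Hist1h1a had 25.5 and 16 counts in the control libraries and 3.5 and 11.5 in the c-FOS libraries and fell by 1.33 ± 0.46 (SE) on the log2 scale (edgeR adjusted p = 0.0213). Its call was lost in DESeq2 (adjusted p = 0.131), without control replicate 1 (-0.90, adjusted p = 0.133) and without c-FOS replicate 1 (-0.82, adjusted p = 0.217), in a range of 8.49e-04 to 0.217, and the value was -2.23 without c-FOS replicate 2. Hist1h1t, the testis H1, had 1 count in c-FOS replicate 2 and none elsewhere.

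H2A pairs with H2B in the nucleosome. Its most abundant member here was Hist3h2a, with 6.59 and 6.87 CPM in the control libraries and 6.04 and 7.23 CPM in the c-FOS libraries. The groups overlapped, and its log2 fold change of -0.02 ± 0.12 (SE) did not pass (edgeR adjusted p = 0.915). Its GENCODE gene overlaps Trim17 on the same strand. Hist1h2af fell from 26.5 and 28 counts in control to 6.5 and 3 with c-FOS, by 2.38 ± 0.43 (SE) on the log2 scale (edgeR adjusted p = 2.24e-04), and by 3.16 without c-FOS replicate 1. As 94% of its 50-base stretches occur in other genes, mostly other H2A copies, the drop cannot be assigned to this copy alone. For Hist1h2ak this share is 57%. Hist1h2ak had 17 and 22 counts in the control libraries and 0 and 6 in the c-FOS libraries and fell by 2.60 ± 0.63 (SE) on the log2 scale (edgeR adjusted p = 0.00229). Its value was -1.70 without c-FOS replicate 1, the library at 0, and without c-FOS replicate 2 no fold is given, since the remaining c-FOS library is at 0.

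Hist1h2al stood apart from the other H2A rows. It lies at chr13:51202727-51203065 on the minus strand (GENCODE M21, GRCm38), outside the stretch from 21715763 to 23934851 that holds the other Hist1 genes. GENCODE and RefSeq list it as a pseudogene and its deposited gene model is 2982 bases long against an annotated GENCODE transcript of 339 bases. Of the 50-base stretches of that transcript, 67.6% occur in other genes. Hist1h2al had 10.5 and 22 counts in the control libraries and 42.5 and 43.5 in the c-FOS libraries and rose by 1.45 ± 0.31 (SE) on the log2 scale (edgeR adjusted p = 8.08e-04), with no overlap between groups. Its value was 1.99 without control replicate 2. Hist1h2ab and Hist2h2ac were tested and did not pass, at log2 fold changes of 1.21 and -0.78 (edgeR adjusted p = 0.0610 and 0.128). Hist1h2ab had 2 and 15 counts in the control libraries and 21 and 17 in the c-FOS libraries. Both c-FOS libraries were above both controls, but its control libraries differed more from each other than one of them did from the c-FOS libraries. Hist1h2ab was called higher with no filter and with the replicate number as a block. The other 13 H2A genes had too few counts to be tested.

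Among the H2B genes, Hist1h2bc had the lowest adjusted p of all members. Its annotated transcript of 1156 bases holds no stem-loop match. Its deposited gene model of 724 bases is longer than those of most H2B members. The gene lies at chr13:23684199-23692908 on the plus strand (GENCODE M21, GRCm38), and it had 5.51 and 4.89 CPM in the control libraries and 22.4 and 21 CPM in the c-FOS libraries. The c-FOS libraries were close to each other and far above both controls. From 5.20 ± 0.445 CPM (SD, n = 2) in control to 21.7 ± 1.02 CPM with c-FOS, it rose by 2.06 ± 0.10 (SE) on the log2 scale with an edgeR adjusted p of 2.54e-10. With c-FOS its level per base of gene model, 29.98 CPM per kb, was near that of Hist1h1c (31.6), whereas in control it was 7.18 against 16.7. Of the 50-base stretches of its annotated transcript, 30.6% occur in other genes, among them Hist1h2bg and Hist1h2be. The share within the shorter gene model was not computed. Hist1h2bg was low, with 9 and 15 counts in the control libraries and 6 and 6 in the c-FOS libraries, and was not tested. Hist1h2be, which has a long gene model of 2502 bases, had 19.5 and 10 counts in the control libraries and 58.5 and 27 in the c-FOS libraries and rose by 1.57 ± 0.44 (SE) on the log2 scale (edgeR adjusted p = 0.00572). The c-FOS libraries differed by more than 2-fold, and without c-FOS replicate 1 the gene did not pass (0.82, adjusted p = 0.161, in a range of 2.04e-06 to 0.161 over the alternatives run); it was 2.19 without control replicate 1.

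The 3 tested H2B members outside the Hist1 cluster were lower or did not pass. Hist2h2bb had 21.5 and 19 counts in the control libraries and 8.5 and 9.5 in the c-FOS libraries and fell by 1.05 ± 0.37 (SE) on the log2 scale (edgeR adjusted p = 0.0218). DESeq2 did not call it (adjusted p = 0.212), nor did edgeR without control replicate 1 (0.0988), c-FOS replicate 1 (0.119) or c-FOS replicate 2 (0.132), in a range of 0.0105 to 0.212. Every 50-base stretch of it occurs in other annotated genes, the antisense gene Gm20628 among them. Hist3h2ba had 32.5 and 12 counts in the control libraries and 11 and 6 in the c-FOS libraries and fell by 1.34 ± 0.53 (SE) on the log2 scale (edgeR adjusted p = 0.0369), although its groups overlapped. Its call rested on control replicate 1: without that library the value was -0.40 (adjusted p = 0.550). It was also lost without c-FOS replicate 2 (-0.89, adjusted p = 0.240) and in DESeq2 (0.136), in a range of 3.31e-05 to 0.550; the value was -1.91 without c-FOS replicate 1 and -1.92 without control replicate 2. Hist2h2be, with 30.5 and 26.5 counts in the control libraries and 23 and 23.5 in the c-FOS libraries, did not pass (-0.25 ± 0.28 SE, edgeR adjusted p = 0.448).

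H3 carries much of the histone modification that marks active and silent chromatin. Hist1h3b had 2 and 2.5 counts in the control libraries and 18.5 and 22.5 in the c-FOS libraries, and rose by 3.06 ± 0.49 (SE) on the log2 scale (edgeR adjusted p = 8.04e-05), the largest change of a tested member in either direction. It is the 1 tested member that reached 10 counts in c-FOS libraries only. The filter thus favoured a rise here, and the rank of this change is a description only. The gene is at chr13:23752267-23752886 on the plus strand (GENCODE M21, GRCm38). Both c-FOS libraries were above both controls, and the call held in each alternative that tested the gene. Hist1h3c went the other way, with 17.5 and 33.5 counts in the control libraries and 4 and 6 in the c-FOS libraries, and fell by 2.29 ± 0.46 (SE) on the log2 scale (edgeR adjusted p = 5.61e-04); the value was -1.80 without control replicate 2. These genes share sequence with each other and with further H3 copies: 60.4% of the 50-base stretches of Hist1h3b and 47% of those of Hist1h3c occur elsewhere. For Hist1h3e the share is 73.4%, with Hist1h3f among the genes that share its sequence. Hist1h3e had 13 and 28.5 counts in the control libraries and 5.5 and 6 in the c-FOS libraries and fell by 1.73 ± 0.48 (SE) on the log2 scale (edgeR adjusted p = 0.00578). DESeq2 did not call it (adjusted p = 0.0594), nor did edgeR without control replicate 2 (-1.08, adjusted p = 0.0941), in a range of 3.48e-05 to 0.0941. Hist1h3d had 18 and 17.5 counts in the control libraries and 12 and 6 in the c-FOS libraries. Hist1h3d (-0.93) and Hist1h3f (-0.98) did not pass (edgeR adjusted p = 0.0642 and 0.0584), but each was called lower when library totals or upper-quartile factors set the scale. Hist1h3d was also called lower without c-FOS replicate 1 (-1.58, edgeR adjusted p = 0.0454) and was at -0.45 without c-FOS replicate 2, in a range of adjusted p of 0.0348 to 0.511 over the alternatives run. The copies Hist2h3c1 and Hist2h3c2 each had 0.5 and 2 counts in the control libraries and 6.5 and 8.5 in the c-FOS libraries. They were not tested, and their c-FOS libraries lay above the controls.

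H4 forms the core of the nucleosome with H3, and nearly all its gene copies encode the same protein. Hist1h4d had 24 and 25 counts in the control libraries and 5 and 4 in the c-FOS libraries. Replicates were close, and it fell by 2.36 ± 0.42 (SE) on the log2 scale (edgeR adjusted p = 1.92e-04). Of the 50-base stretches of its annotated transcript of 1138 bases, 10.2% occur in other genes. That transcript runs on for 770 bases past the stem-loop, while the deposited gene model has 365 bases. The share within the gene model was not computed and may be higher. Hist1h4i, the most abundant H4 member, had 41.5 and 35 counts in the control libraries and 33.5 and 43.5 in the c-FOS libraries and did not pass (0.07 ± 0.24 SE, edgeR adjusted p = 0.811). Its groups overlapped, and the sign of the small difference turned with library totals (-0.07). Hist1h4h had 12.5 and 13.5 counts in the control libraries and 8.5 and 25.5 in the c-FOS libraries and did not pass either (0.42 ± 0.43 SE, edgeR adjusted p = 0.407); its c-FOS libraries lay on both sides of the controls. Hist1h4k, at -0.94, missed the threshold (edgeR adjusted p = 0.0710) and was called lower with library totals.

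**Figure D3:**
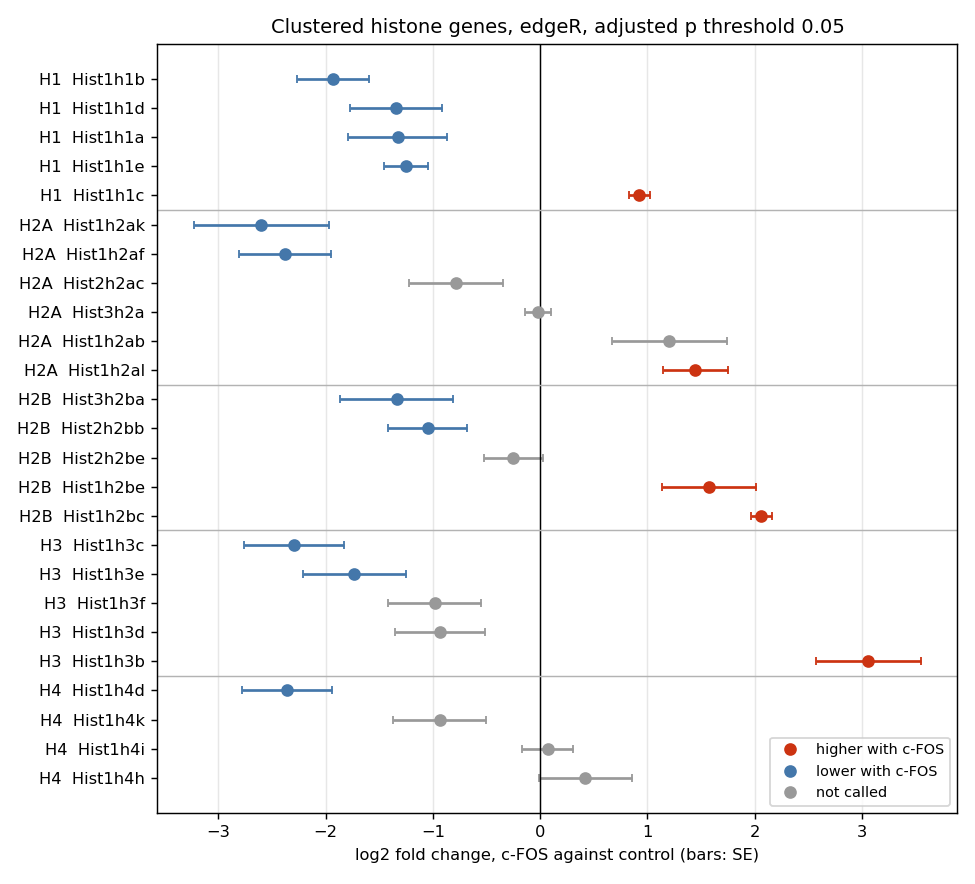
log2 fold changes (c-FOS against control, edgeR, bars are SE) of the 25 tested members by class; blue is called lower, red called higher and grey not called. Every class has members to the left of 0, and H4 is the one class with no member called higher.

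The 44 members that were not tested each had at most 15 counts in a library, and 2 of them had none at all. Summed, they had 5.01 and 6.8 CPM in the control and 2.84 and 3.42 CPM in the c-FOS libraries, so both c-FOS libraries were below both controls. Of these members, 32 had a lower and 10 a higher mean with c-FOS. Over all 67 members with a count, tested or not, the c-FOS libraries were both below both controls for 39 and both above for 12, while over all 17464 genes with a count the same held for 34.6% and 35.3%. The 39 were 4 of 6 H1, 8 of 19 H2A, 10 of 19 H2B, 9 of 12 H3 and 8 of 13 H4 genes. At these counts single members, such as Hist1h3i with 9 and 11 counts in the control libraries and 1 and 2.5 in the c-FOS libraries or Hist1h4b with 6 and 6 counts in the control libraries and 1 and 1 in the c-FOS libraries, are given only as values.

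Summed by class, H1 and H2B were higher with c-FOS and H3 and H4 lower. A class sum cancels only a split of reads among copies of that class. Sequence shared with genes outside the class, as between Hist1h1e and Hist1h2be, may still affect it, as may reads left out in counting. The sums are given without a test. H2B went from 9.99 ± 0.712 to 25.8 ± 2.01 CPM (SD, n = 2 per group), a ratio of 2.58, and Hist1h2bc was most of the sum in each library. H1 had 18.3 and 16.1 CPM in the control and 23.7 and 25.9 CPM in the c-FOS libraries, a ratio of 1.44, with Hist1h1c as most of the sum in each library. H2A, led by Hist3h2a, had 10.2 and 11.3 CPM in the control and 9.24 and 10.5 CPM in the c-FOS libraries, and its groups overlapped. H3 had 3.40 and 4.6 CPM in the control and 2.62 and 2.36 CPM in the c-FOS libraries (ratio 0.623). H4 had 4.27 and 4.73 CPM in the control and 2.37 and 3.36 CPM in the c-FOS libraries (ratio 0.637). In both of these classes the c-FOS libraries were below the controls. A sum of all 69 members was higher with c-FOS (46.5 ± 0.329 to 65.8 ± 0.946 CPM), but without Hist1h1c, Hist1h2bc and Hist3h2a, left out after their values were seen, it was lower (22.5 ± 1.61 to 14.6 ± 0.125 CPM). The 66 other members made up 45.7% and 51.1% of the family's summed CPM in the control and 22.6% and 21.9% in the c-FOS libraries.

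**Figure D4:**
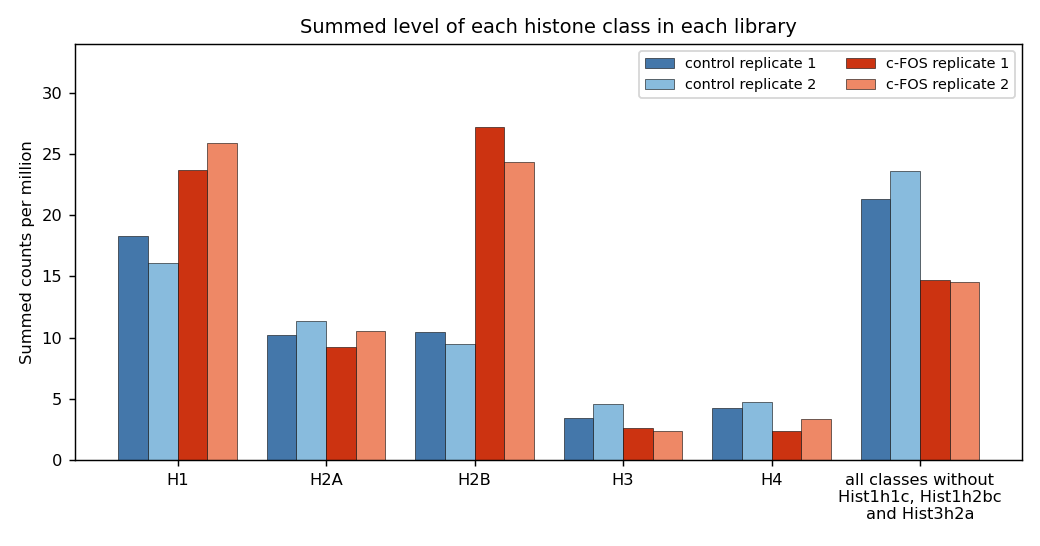
Summed CPM of each histone class in the 4 libraries (1 bar per library), and of all classes without the 3 most abundant members. The H1 and H2B bars are taller in the c-FOS libraries, and the bars of H3, H4 and of the remainder are shorter.

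The starts of the genes hold letters known from histone promoters. RefSeq promoter windows (GRCm38.p6, 250 bases before to 50 after the start) were found for 61 of the 69 members, and Hist1h2bc and Hist1h2al were among the 8 without one. Members are counted below as genes with a match in any of their windows, while the shares over all genes are per window. The octamer ATTTGCAT, the site of the factor encoded by Pou2f1, was searched on both strands. It was found for 7 of 17 H2A and 7 of 16 H2B genes, and for none of the 28 H1, H3 and H4 genes. Of 32851 windows of all genes, 1.7% held it. CCAAT, on both strands, was found for all 49 H1, H2A, H2B and H3 genes but for 3 of 12 H4 genes, against 37.4% of all windows. TATAAA was found in 35 of 61 members and 13.6% of all windows. TGANTCA, a loose form of the letters bound by AP-1 dimers that contain c-FOS, takes any base at N. It was found in 3 of 61 members (4.9%), namely Hist1h1b, Hist1h2ai and Hist1h2bl, against 7.8% of all windows. None of the 3 matches has C or G at N, the bases of the usual AP-1 site. The windows of Hist1h2ai and Hist1h2bl overlap, and their match is the same stretch of DNA read on opposite strands. All these motif hits are matches of letters and not sites. The windows of 3 genes are printed, an H1 gene that fell, the H1 gene that rose and an H2B gene that rose with the octamer, with capitals on every match.
Hist1h1b, chr13:21780576-21780875, minus strand: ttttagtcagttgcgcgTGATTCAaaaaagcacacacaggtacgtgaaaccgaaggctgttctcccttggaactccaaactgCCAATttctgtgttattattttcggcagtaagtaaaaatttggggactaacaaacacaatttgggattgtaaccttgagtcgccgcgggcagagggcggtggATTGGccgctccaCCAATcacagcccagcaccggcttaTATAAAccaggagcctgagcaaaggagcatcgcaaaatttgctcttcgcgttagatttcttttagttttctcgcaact
Hist1h1c, chr13:23738557-23738856, plus strand: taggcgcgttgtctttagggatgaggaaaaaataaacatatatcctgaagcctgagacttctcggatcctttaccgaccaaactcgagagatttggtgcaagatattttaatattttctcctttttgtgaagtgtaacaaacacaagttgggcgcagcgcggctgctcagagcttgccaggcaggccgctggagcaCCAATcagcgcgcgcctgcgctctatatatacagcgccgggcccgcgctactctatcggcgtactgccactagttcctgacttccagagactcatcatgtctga
Hist1h2be, chr13:23585921-23586220, minus strand: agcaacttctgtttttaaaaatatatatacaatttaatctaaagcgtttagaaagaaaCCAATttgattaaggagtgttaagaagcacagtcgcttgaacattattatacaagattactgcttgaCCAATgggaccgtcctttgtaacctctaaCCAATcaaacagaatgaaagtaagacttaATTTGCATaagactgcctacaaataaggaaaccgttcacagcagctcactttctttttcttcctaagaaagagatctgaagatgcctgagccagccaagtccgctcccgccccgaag
In the window of Hist1h1b all motifs but the octamer are present. The window of Hist1h1c holds CCAAT and none of the other 3 motifs. The window of Hist1h2be is 1 of 2 listed for the gene; the other holds no octamer. Windows of 9 pairs of an H2A and an H2B gene on opposite strands overlapped. Of these divergent pairs, 5 had a lower mean with c-FOS in both genes and none had a higher mean in both, with Hist1h2ak the 1 tested gene among them. Of all 67 members with a count, 49 had a lower mean with c-FOS. The other genes of the pairs had too few counts to be tested, so nothing is read from the count of pairs.

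Histone genes outside the clusters, which encode replacement and variant histones, were also lower. Of 9 tested genes, 8 fell, 1 did not pass and none rose (median log2 value -0.69). H3f3b and H3f3a, which encode the replacement H3 that is laid down outside replication, fell from 861 ± 28.2 CPM (SD, n = 2) in control to 589 ± 0.931 CPM with c-FOS and from 88 ± 7.78 CPM (SD, n = 2) in control to 54.6 ± 1.37 CPM with c-FOS. H2afx, whose product is phosphorylated at DNA breaks, fell from 79.1 ± 2.39 CPM (SD, n = 2) in control to 26.1 ± 2.08 CPM with c-FOS, and H2afz from 20.4 ± 1.66 CPM (SD, n = 2) in control to 13.8 ± 0.924 CPM with c-FOS. Cenpa, the H3 variant of centromeres, fell by 2.33 ± 0.07 (SE) on the log2 scale (edgeR adjusted p = 1.04e-12). H1f0, a replacement H1 known from resting cells, had 189 and 168 CPM in the control libraries and 84.4 and 86.6 CPM in the c-FOS libraries and fell by 1.06 ± 0.05 (SE) on the log2 scale (edgeR adjusted p = 4.47e-10), so that it went the opposite way to Hist1h1c. H1fx had 0 counts in 3 libraries and 1 in c-FOS replicate 2.

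Genes that make, mature and deposit histones were read beside the members. Of 20 tested histone chaperone and deposition genes, 16 fell and 4 were not called (median -0.39). Asf1b, a chaperone of new H3 and H4, fell from 50.4 ± 5.09 CPM (SD, n = 2) in control to 14.6 ± 1.35 CPM with c-FOS. Chaf1b, a subunit of the assembly factor CAF-1, fell by 1.28 and Nasp by 1.19 on the log2 scale. The list of histone transcription and 3′ end processing went less one way: of 32 tested genes, 4 rose, 15 fell and 13 were not called (median -0.11). Slbp, which encodes the stem-loop binding protein, had 51.9 and 55.3 CPM in the control libraries and 32 and 33 CPM in the c-FOS libraries and fell by 0.72 ± 0.06 (SE) on the log2 scale (edgeR adjusted p = 5.36e-08). Npat, the coactivator that links cyclin E and CDK2 to histone transcription, did not pass (-0.02 ± 0.06 SE, edgeR adjusted p = 0.746; -0.16 and adjusted p = 0.0341 with library totals, in a range of 0.0341 to 0.904). Ccne2, which encodes a cyclin E, fell from 17.5 ± 4.39 CPM (SD, n = 2) in control to 7.31 ± 0.0258 CPM with c-FOS, E2f2 fell by 1.87 and the zinc finger gene Zfp473, a component of the processing complex, by 1.15. Casp8ap2, a factor of histone locus bodies, fell by 0.21 (edgeR adjusted p = 0.0167), a call lost without control replicate 2 (-0.07, adjusted p = 0.255) and without c-FOS replicate 2 (0.0881), in a range of 7.37e-10 to 0.255. Its value was -0.34 without control replicate 1. Lsm10 (0.20) and Lsm11 (0.13), subunits of the small RNA-protein particle that directs the cleavage, did not pass (edgeR adjusted p = 0.0534 and 0.176). Lsm10 passed as higher with RLE factors and Lsm11 without control replicate 2, and Lsm11 was -0.01 with library totals.

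Transcripts of S phase and mitosis were lower. Of 40 tested S phase and DNA replication genes, 38 fell and 2 were not called (median -1.09), and all 25 mitosis genes fell (median -2.34). Tk1, the thymidine kinase of S phase, fell from 38.4 ± 3.46 CPM (SD, n = 2) in control to 8.06 ± 1.21 CPM with c-FOS, and Top2a, the topoisomerase of dividing cells, from 472 ± 54.8 CPM (SD, n = 2) in control to 83.2 ± 13.1 CPM with c-FOS. In the same lists Dscc1, of the cohesion of sister chromatids, fell by 2.25, Mcm10, of replication initiation, by 1.92, the spindle protein gene Nusap1 by 2.82 and the mitotic kinase gene Aurkb by 2.50 on the log2 scale. Slbp stands on the S phase list too. The summed level of the S phase list was 1570 and 1846 CPM in the control and 906 and 861 CPM in the c-FOS libraries. Among 10 cell cycle inhibitor genes 3 rose and 6 fell, among them Cdkn2b, which rose from 56.8 ± 4.39 CPM (SD, n = 2) in control to 260.2 ± 4.57 CPM with c-FOS, and Cdkn2c and Cdkn1c, which fell from 31 ± 3.71 CPM (SD, n = 2) in control to 7.62 ± 0.361 CPM with c-FOS and by 3.38 on the log2 scale. The fall of 11 histone members thus lay beside a fall of these lists, as did the rise of 5 members; the part of cell cycle position in either was not tested.

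**Figure D5:**
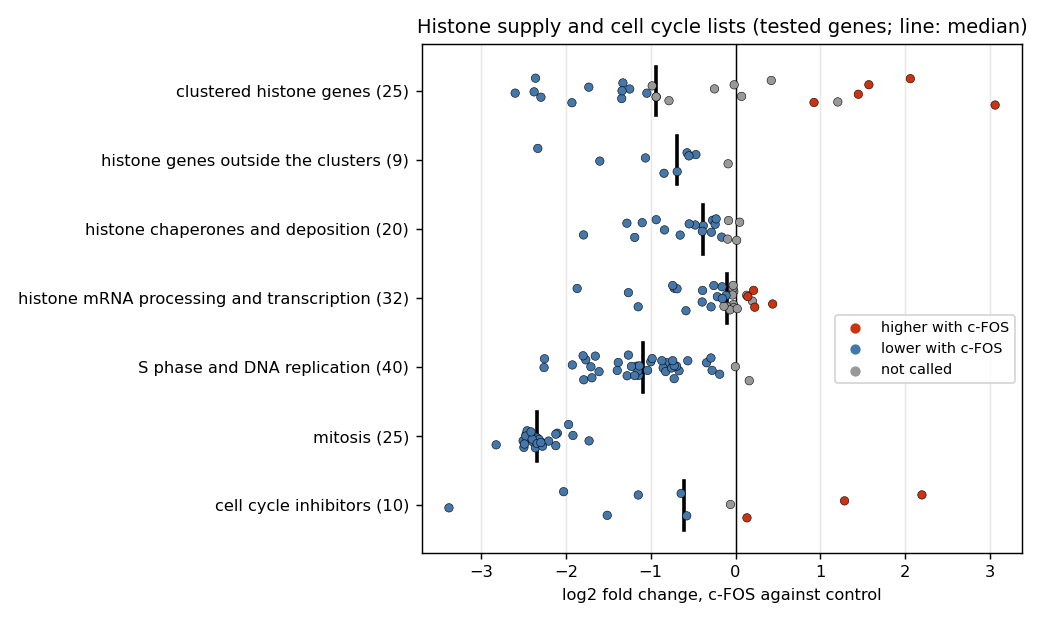
log2 fold changes of the tested genes of each list (1 point per gene, number tested in brackets, vertical line is the median). The clustered histone genes reach from below -2 to above 3, whereas no gene of the lists of mitosis, S phase, chaperones or histone genes outside the clusters was called higher.

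The library values that could bear on this family moved with the groups in both directions. Of the RNAs without a poly(A) tail on a list of 15, 10 had a row and 3 were tested. The ribosomal RNA precursor Rn45s was at 42086 and 39021 CPM in the control libraries and 48781 and 48010 CPM in the c-FOS libraries and rose by 0.26 (edgeR adjusted p = 3.00e-04), or by 0.12 with library totals. Rmrp, at 4.94 and 1.34 CPM in the control libraries and 0.611 and 0.678 CPM in the c-FOS libraries, and Rpph1, at 2.62 and 0.894 CPM in the control libraries and 0.288 and 0.646 CPM in the c-FOS libraries, fell by 2.26 and 1.86 (edgeR adjusted p = 0.00134 and 0.00382); without control replicate 1, their highest library, the values were -1.05 and -0.90 (adjusted p = 0.00497 and 0.0452). Rnu12 and Rn4.5s were at 0 in all libraries. The part of RNA without poly(A) in the histone counts was not tested. All 8 keratinocyte and BCC markers were expressed and fell, with Krt5 falling from 11383 ± 399 CPM (SD, n = 2) in control to 3762 ± 41.3 CPM with c-FOS. Gli1, a target of hedgehog signalling, fell by 2.79 and Trp63 fell by 1.54 on the log2 scale. Of the markers of other cell types, 4 of 8 fibroblast genes were tested and 3 rose (summed level 5.45 and 5.68 CPM in the control and 17.7 and 19.2 CPM in the c-FOS libraries, Thy1 at 0), 3 of 7 leukocyte genes were tested and rose (18.8 and 17 CPM in the control and 41.4 and 44.9 CPM in the c-FOS libraries, Cd3e at 0), and of 3 tested endothelial genes 2 rose and 1 fell (88.1 and 84.2 CPM in the control and 106 and 105 CPM in the c-FOS libraries, Kdr at 0). Pdgfrb, a fibroblast marker, went from 0 and 0 counts in control to 75.5 and 82 with c-FOS, and Csf1r, a macrophage marker, from 11.5 and 7 counts in control to 511.5 and 571.5 with c-FOS. Col1a2 (2.67), Pdgfra (1.45), Cd14 (0.68), Cd68 (0.37), Tek (1.35) and Pecam1 (0.31) rose and Egfl7 (-0.66) fell, as log2 fold changes. The call of Cd68 was lost without c-FOS replicate 2 (0.29, edgeR adjusted p = 0.0617, the highest over the alternatives run), and its value was 0.24 with library totals. The part of any such cells in the histone values was not tested.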

How the data were processed

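RNA-seq of 4 libraries was used, 2 from cells with the empty vector and 2 with the c-FOS vector, grouped by title. Per the series design text, reads were processed with TopHat and then HOMER, and per the submitters' processing notes the build was mm9 and DESeq2 was among the tools. Versions, annotation, strand setting and the handling of reads that map to several places were not given in the sources used here. Deposited values are unnormalized expected counts per gene symbol in steps of 0.5, and 48% of the values above 0 are not whole. A gene model length stands beside them in the authors' table. For 2 of its symbols there were 2 rows among 24909, and that with more counts was used.

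Counts were rounded and tested with edgeR 4.0.16 (R 4.3.3) on the whole table: TMM factors, a filterByExpr filter with 10 counts and a total of 15 as its minimums, the quasi-likelihood test without covariates, two-sided, Benjamini-Hochberg adjustment over 12791 genes at 0.05. CPM uses the rounded counts and the TMM-scaled library size, and SE comes from the F statistic. The common biological coefficient of variation was 3.38%. Replicates differed by more than sampling noise (chi-square per degree of freedom 4.82 in control and 1.93 with c-FOS), so none was treated as a repeat. Most members had few counts, so sampling noise limits their precision, in addition to the spread between replicates.

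The members and all gene lists were chosen with earlier results of these data known. Named were the 3 most abundant members of each class, the tested member of each class with the highest and the lowest fold change, members called with a change of 2-fold or more, every tested H1 gene, the 3 called genes of each list with the largest change, and a fixed set of histone-related genes. Members named outside this rule (Hist1h2ab, Hist2h2ac, Hist1h2bg, Hist1h3f, Hist1h3i, Hist1h4b, Hist1h4k, Hist2h3c1, Hist2h3c2, and those in lists of matches) were chosen after their values were seen. Coordinates and sequences are from RefSeq and GENCODE on GRCm38, not the mm9 of the files. Sequence searches used exact letters. Alternatives were RLE, library-total and upper-quartile scaling, no filter and a filter of 50 counts in 2 libraries, DESeq2 1.42.0, unrounded counts, the replicate number as a block, and each library left out.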

Additional observations from a re-analysis of the deposited data

How the results depend on the processing

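The 5 members higher and 11 lower were all called again under RLE, library-total and upper-quartile scaling and with unrounded counts. With 1 library left out, where a lone library is assumed to vary like the other group, 4 to 6 were higher and 9 to 11 lower, but 8 of the 11 were among the lower without control replicate 1, c-FOS replicate 1 or c-FOS replicate 2, and 10 without control replicate 2; Hist1h2be was lost from the higher without c-FOS replicate 1. With no filter, 67 members were tested and 8 were higher and 16 lower. With the filter of 50 counts, 4 members were tested (Hist1h1c, Hist1h2bc, Hist3h2a and Hist1h1e), 2 higher and 1 lower. The median log2 fold change over these 4 was 0.45, in place of -0.94 over the 25 members of the main fit. In DESeq2 6 were lower, and all 6 were among the 11; the cause was not tested. The median was -1.07 with library totals, -1.0 with upper-quartile factors and -1.04 to -0.90 with 1 library left out. With the replicate number as a block, 6 members were higher (Hist1h2ab added) and 11 lower, and 4246 genes were higher and 4218 lower. The numbers do not pair the libraries (correlation of deviations -0.0690).

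Over 12 alternatives, 210 of 235 values of the 21 named members kept direction and call. Not every alternative tested every member, and the stricter filter on counts tested only 4. In each alternative that tested them, 11 members kept direction and call. Among the named genes the sign turned for Hist1h4i, Hist3h2a, Hist1h4h, Npat and Lsm11, which were not called: Hist1h4i (-0.066 with library totals; -0.089 to 0.25 with 1 library left out), Hist3h2a (-0.15 to 0.11), Hist1h4h (-0.44 to 0.92) and Npat (-0.066 to 0.022), each with 1 library left out, and Lsm11 (-0.0059 with library totals). Npat was called lower with library totals (-0.16). Low counts limit the single members, and shared reads among copies cannot be undone from these counts.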
